A study of Mus musculus with 37 samples.

Results

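The genes described here are a set of DNA repair and damage response genes, 44 in number, measured in mouse cortex. They were chosen by name as members of the main repair pathways, with Brca1 noted beforehand for its higher level in R6/2 cortex, so the set was selected on the comparison of R6/2 against WT, and that comparison is given below as a description only. Of the 44 genes, 41 had a probe set with 1 gene symbol, out of 18193 genes measured in this way, and these 41 genes were covered by 91 of the 45037 probe sets. Xrcc2, Fan1 and Trp53 were not analysed here. Each gene was represented by its brightest probe set, the one with the highest mean over all arrays.

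Cortex was taken at 9 wk of age from mice of 4 genotypes, 1 array per mouse. The 10 Dble::R6/2 mice (5 female and 5 male) carried both the R6/2 transgene and 1 null allele of Hdac4. The 9 R6/2 mice (4 female and 5 male) carried the transgene and 2 intact Hdac4 alleles. The 9 Hdac4HET mice (4 female and 5 male) carried 1 null allele of Hdac4 and no transgene, and the 9 WT mice (4 female and 5 male) carried neither. R6/2 mice are hemizygous for a transgene that expresses a mutant fragment of human huntingtin with a long CAG repeat. It is expressed from the human promoter, in neurons and other cells alike. All mice were bred on a mixed CBA and C57BL/6 background. According to the paper, the null allele was made in another strain and still sits in a linked stretch of that strain's DNA. Comparisons of mice with and without the allele cannot separate it from this stretch. The paper found no effect of the stretch on huntingtin aggregates, and its effect on the genes here was not tested. The values are log2 levels, on which a difference of 1 stands for a 2-fold change.

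Cells remove damaged DNA by several pathways. Base excision repair removes small base lesions, nucleotide excision repair cuts out bulky lesions, mismatch repair corrects pairing errors and loops left in the helix, and breaks of both strands are sealed either by end joining or, with a sister copy as template, by homologous recombination. Neurons no longer divide, so homologous recombination is thought to play little part in them, while mismatch repair proteins are known from mouse models of Huntington's disease for their role in the lengthening of the CAG repeat in brain cells. Kinases such as Atm and Atr signal the damage, and p53 targets such as Cdkn1a arrest the cell cycle.

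Brca1, with the largest rise among the 41 genes, and Cdkn1a and Gadd45b, which were lower in both comparisons of transgenic mice, are introduced by the 250 bases before their annotated starts, since the results below turn on these 3 genes. The sequences are from RefSeq on GRCm38.p6 and are written 5′ to 3′ along the gene's own strand. Capitals mark the cAMP response element core TGACGT in Brca1, a 10-base p53 motif in Cdkn1a and the TATA box TATAAA in Gadd45b. Brca1 lies on the minus strand at chr11:101488761-101551955, and its window was chr11:101551956-101552205. Cdkn1a lies on the plus strand at chr17:29090979-29100722, and the window of its upstream start was chr17:29090729-29090978. Gadd45b lies on the plus strand at chr10:80930091-80932204, and its window was chr10:80929841-80930090.
Brca1: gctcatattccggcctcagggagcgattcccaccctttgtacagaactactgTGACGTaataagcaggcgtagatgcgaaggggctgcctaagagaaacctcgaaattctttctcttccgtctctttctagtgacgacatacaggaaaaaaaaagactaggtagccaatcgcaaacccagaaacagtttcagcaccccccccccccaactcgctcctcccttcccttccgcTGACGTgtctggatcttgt
Cdkn1a: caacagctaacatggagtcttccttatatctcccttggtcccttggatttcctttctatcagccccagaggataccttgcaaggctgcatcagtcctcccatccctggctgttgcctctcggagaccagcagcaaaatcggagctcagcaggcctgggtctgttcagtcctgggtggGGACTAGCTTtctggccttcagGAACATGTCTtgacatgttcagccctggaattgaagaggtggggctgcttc
Gadd45b: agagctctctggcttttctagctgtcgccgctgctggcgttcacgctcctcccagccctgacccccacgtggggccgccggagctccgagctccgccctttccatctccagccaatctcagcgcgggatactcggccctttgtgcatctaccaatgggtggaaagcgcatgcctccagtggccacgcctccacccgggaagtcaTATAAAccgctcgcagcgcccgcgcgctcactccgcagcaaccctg

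Both strands were searched, and matches of the 4 motifs did not overlap in these windows. TGACGT began 198 and 19 bases before the start of Brca1, and CCAAT, the CCAAT box, 86 bases before it. The p53 motif began 73 and 51 bases before the upstream start of Cdkn1a, and it had no match in the window of the second annotated start, chr17:29093519-29093768. TATAAA began 46 bases before the start of Gadd45b, and CCAAT 139 and 100 bases before it. Among 32851 mouse promoter windows of the same length, 6.47% held TGACGT, 33.8% CCAAT, 12.4% TATAAA and 7.13% the p53 motif. Of the 38 measured repair genes with a window, TGACGT was found in 4, CCAAT in 17, TATAAA in 5 and the p53 motif in 4, namely Brip1, Cdkn1a, Fen1 and Gadd45a. These matches describe letters in a window and no binding was measured.

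Several arrays stood apart before any repair gene was considered. Mean levels of 8 olfactory bulb markers ran up to 8.11 in Hdac4HET mice, against at most 5.35 in WT mice, and 6 of 9 Hdac4HET arrays and 1 of 10 Dble::R6/2 arrays lay more than 0.5 above the highest WT array. On 6 of the 37 arrays the sex-linked genes went against the labelled sex. Where leaving out either set of arrays ended a call in Dble::R6/2 against Hdac4HET, the value without it is given below. Hdac4 itself followed the labels, with a level of at most 8.02 in every mouse with the null allele and at least 8.28 in every mouse without it. The 6 markers of cortical excitatory neurons averaged between 9.51 and 9.88 in Dble::R6/2 mice and between 9.73 and 10.0 in Hdac4HET mice, and 3 of the 6 (Slc17a7, Rorb and Cux2) were lower in Dble::R6/2 mice at any size of change. The 5 markers of striatal neurons were all lower in Dble::R6/2 than in Hdac4HET mice. Their mean level ran between 7.67 and 8.34 in Dble::R6/2 mice and between 8.66 and 9.33 in Hdac4HET mice. It ran between 7.28 and 8.5 in R6/2 mice and between 7.93 and 9.15 in WT mice, so the Hdac4HET mice reached above the WT mice. Cortex is a mixture of cells, so fewer cells of a type and less RNA per cell cannot be told apart in these arrays.

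The comparison of Dble::R6/2 against Hdac4HET asks what the transgene changes in mice that all carry the Hdac4 null allele. It shares no mouse with R6/2 against WT and therefore gives the changes of the 41 genes in other animals. It is not an independent test of the set, because the genes were chosen with earlier results of these data known. The spread behind its p-values was also estimated over all arrays, those of R6/2 and WT mice included. In a fit of the compared genotypes alone, the calls of all 41 genes stayed the same. Brca1 rose 2.11-fold, Cdkn1a fell to 51.0% of the Hdac4HET level, Gadd45b to 71.2% and Gadd45a to 73.0%. These were the 4 genes past both thresholds, an adjusted p under 0.05 by limma over all probe sets and a change of more than 1.3-fold (0.38 on the log2 scale). In counts, 1 of 41 genes (2.44%) was higher and 3 of 41 (7.32%) lower past both thresholds, where 2.6% of all 18193 genes were higher and 4.08% lower. With no limit on size, 18 of 41 genes (43.9%) were higher, against 28.4% of all genes, and 6 of 41 (14.6%) were lower, against 14.1% of all genes. Of the higher genes, Atm, Chek1, Chek2, Ercc1, Lig3 and Pms2 lost their calls without the arrays high in olfactory bulb markers. The share of all genes was not computed without those arrays. Their omission left 3 Hdac4HET and 9 Dble::R6/2 arrays. With so few mice a call can be lost although the change is no smaller, as for Chek2 and Lig3. The median log2 change was 0.08 over the 41 genes and 0.04 over all genes. Most of the shifts were therefore under 1.3-fold.

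The counts of the 6 functional groups stand beside 28.4% of all genes higher and 14.1% lower at any size, and groups of this size give coarse shares. All 4 mismatch repair genes were higher at any size of change, with a median log2 change of 0.21. Of 5 end joining genes 3 were higher and none lower, with a median of 0.18. Of 12 genes of base excision and single-strand break repair 4 were higher and 1 lower (median -0.01), of 10 homologous recombination genes 2 were higher and 1 lower (median 0.03), and of 2 nucleotide excision repair genes 1 was higher (median 0.1). Of 8 genes of damage signalling and arrest 4 were higher and 4 lower (median -0.11), with the kinases on one side and Cdkn1a and the Gadd45 genes on the other. No test of one group against another was made.

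**Figure D1:**
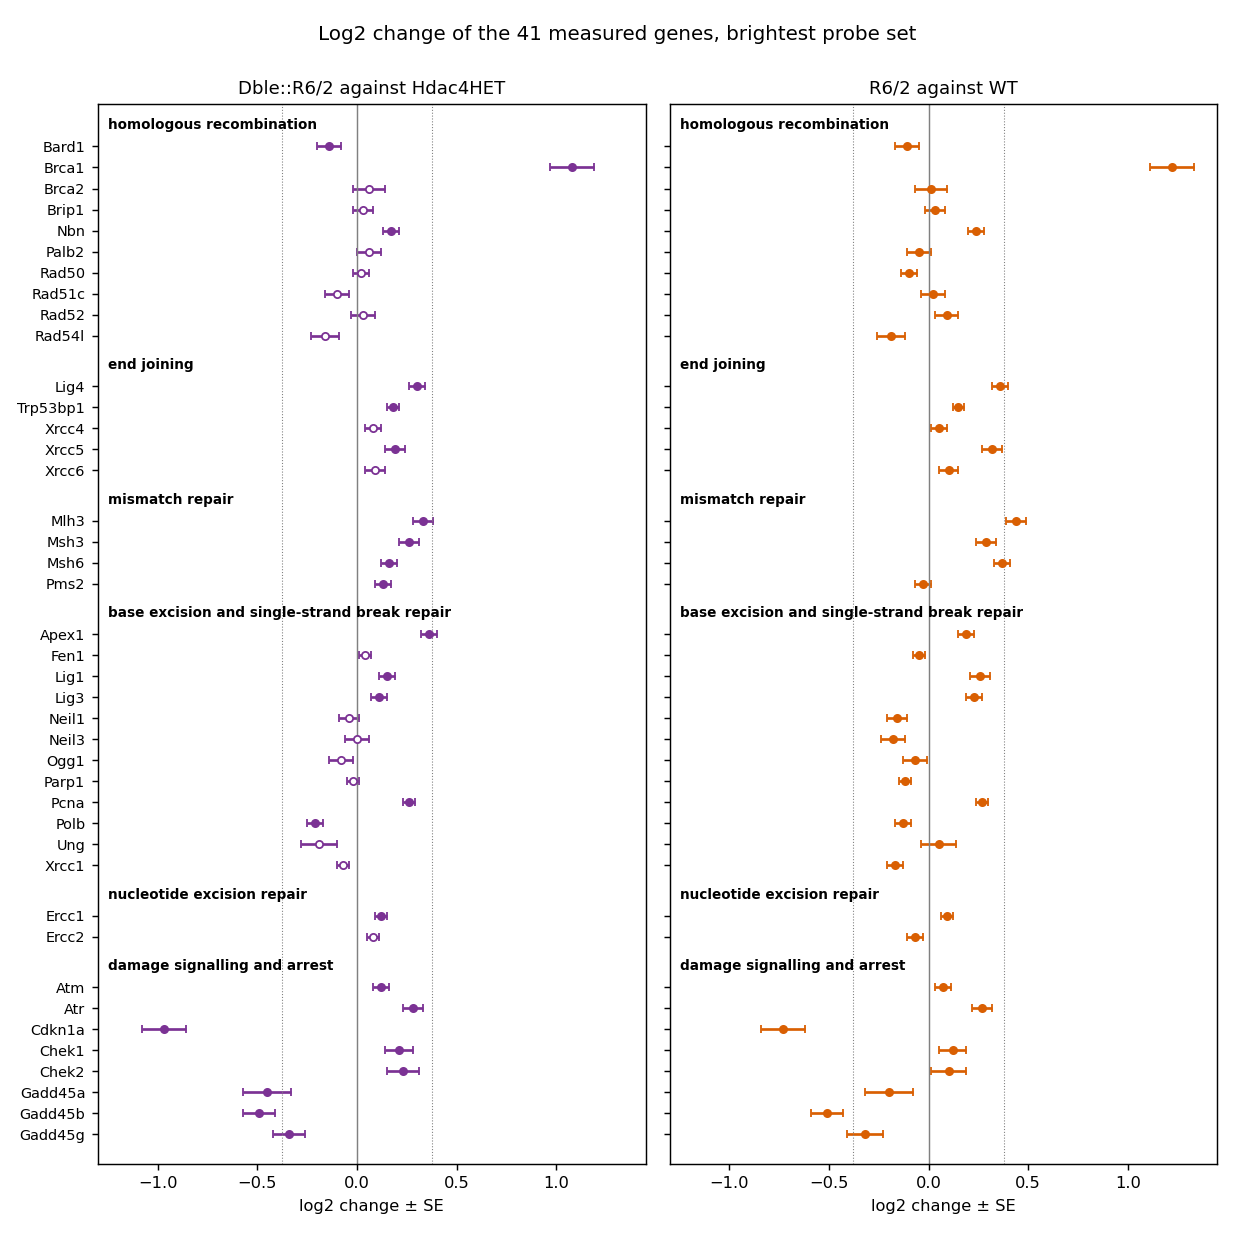
Log2 change with its standard error for the 41 genes by functional group, in Dble::R6/2 against Hdac4HET on the left, where filled points have an adjusted p under 0.05 by limma, and in R6/2 against WT on the right, where all points are filled and no test is marked. Dotted lines stand at a 1.3-fold change, and Brca1 at 1.08 and 1.22 and Cdkn1a at -0.97 and -0.73 lie farthest from 0.

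Brca1, which with its partner Bard1 forms a ubiquitin ligase that promotes the trimming of broken ends, was the homologous recombination gene that changed most. Its log2 level was lowest at 6.16, with a median of 6.43 and a highest value of 6.87 in Dble::R6/2 mice, against 5.14, 5.43 and 5.79 in Hdac4HET mice. Every Dble::R6/2 mouse thus lay above every Hdac4HET mouse. The log2 change was 1.08 (SE 0.11, limma adjusted p = 1.63e-10). Without the arrays high in olfactory bulb markers it was 1.15 (adjusted p = 1.98e-06), and without the arrays whose sex-linked genes went against the label 1.12 (adjusted p = 2.04e-08).

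Brca1 had 4 probe sets, and they did not all move alike. The second, 1451417_at, averaged 5.52 ± 0.17 (SD, n = 10) in Dble::R6/2 mice and 4.96 ± 0.05 (n = 9) in Hdac4HET mice, again without overlap, a log2 change of 0.56 (limma adjusted p = 2.07e-07). The probe set 1424630_a_at had a log2 change of 0.57 (adjusted p = 5.26e-05), with the lowest Dble::R6/2 mouse at 4.16 and the highest Hdac4HET mouse at 4.36. The probe set 1427698_at averaged 4.88 ± 0.17 (n = 10) in Dble::R6/2 mice and 4.81 ± 0.14 (n = 9) in Hdac4HET mice, and its log2 change of 0.07 (SE 0.07) did not pass the test (adjusted p = 0.512). With the median over the 4 probe sets the Brca1 change was 0.34, under 1.3-fold. Beside Brca1, 9 markers of proliferating cells had a mean level of 4.69 to 5.04 in Dble::R6/2 mice and 4.79 to 5.06 in Hdac4HET mice. Of these 9 markers Birc5 was higher by 0.26 and Rrm2 fell by 0.41, and the other 7 did not pass the test. Whether dividing cells have a part in the Brca1 change was not tested.

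**Figure D2:**
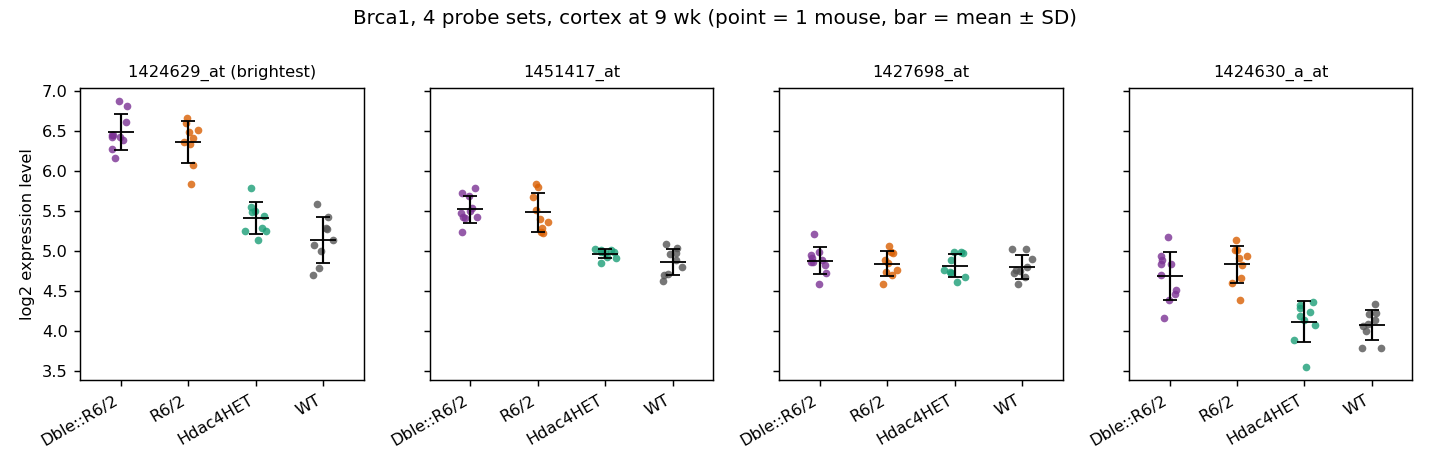
Log2 level of the 4 Brca1 probe sets in each mouse of the 4 genotypes, with mean and SD. On the brightest probe set the Dble::R6/2 mice (6.16 to 6.87) and R6/2 mice (5.83 to 6.66) lie above all Hdac4HET mice (5.14 to 5.79) and WT mice (4.7 to 5.59), while 1427698_at stays between 4.58 and 5.21 in all genotypes.

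The partners of Brca1 did not share its change. Bard1 was lower by a log2 change of -0.14 (limma adjusted p = 0.0396), on a dim probe set with a mean log2 level of 3.6, and this call ended when any 1 of 9 arrays was left out (Dble::R6/2 replicates 1, 3, 4, 7 or 10, or replicates 4, 6, 8 or 9 of Hdac4HET), with a change of -0.11 without Hdac4HET replicate 9. The Bard1 call was also lost without the arrays high in olfactory bulb markers (-0.12, adjusted p = 0.315) and without those whose sex-linked genes went against the label (-0.16, adjusted p = 0.0578). Palb2, which bridges Brca1 and Brca2, had a log2 change of 0.06, Brca2, which acts in strand exchange, 0.06 and the helicase Brip1 0.03, and none passed the test. Nbn, a subunit of the complex that binds broken ends together with Rad50, rose by 0.17 (SE 0.04, adjusted p = 5.74e-04), while Rad50 itself had a change of 0.02. Rad51c, which acts in strand exchange too, had a change of -0.1 and the motor protein Rad54l of -0.16, and neither passed the test. Rad52, which anneals single strands, had a change of 0.03 on its brightest probe set and of -0.33 (adjusted p = 2.43e-04) on the other, a disagreement noticed after the values were seen.

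Among the end joining genes, Lig4, the ligase that seals the ends, had the largest change. Its log2 level was lowest at 7.88, with a median of 7.98 and a highest value of 8.09 in Dble::R6/2 mice, against 7.51, 7.72 and 7.88 in Hdac4HET mice, so that the groups met at the second decimal without overlap. The log2 change was 0.3 (SE 0.04, limma adjusted p = 7.49e-08), and 0.28 without the arrays high in olfactory bulb markers (adjusted p = 5.24e-04). Xrcc5, a subunit of the Ku ring that clasps broken ends, rose by 0.19 (adjusted p = 0.00252), and Trp53bp1, which shields ends from trimming, by 0.18 (adjusted p = 4.29e-05). The second Trp53bp1 probe set rose by 0.18 as well (adjusted p = 5.54e-05), 4 dimmer ones did not pass the test, and the median over all 6 turned the direction to -0.11. The other Ku subunit, Xrcc6, had a log2 change of 0.09 and Xrcc4, the partner of Lig4, of 0.08, and neither passed the test on the brightest probe set. The second Xrcc4 probe set rose by 0.19 (adjusted p = 5.24e-04).

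The mismatch repair genes rose together, each by less than 1.3-fold. Msh3 and Msh6 act in the recognition of loops and mismatches, and Mlh3 and Pms2 in the step that cuts the strand. Mlh3 (chr12:85234466-85270647) had log2 levels of 7.87, 7.97 and 8.18 as the lowest, median and highest in Dble::R6/2 mice, against 7.53, 7.69 and 7.78 in Hdac4HET mice, with no overlap. Its log2 change was 0.33 (SE 0.05, limma adjusted p = 2.18e-07) and stayed at 0.33 without the arrays high in olfactory bulb markers (adjusted p = 5.8e-04).

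Msh3 (chr13:92211878-92355004) rose by 0.26 (SE 0.05, limma adjusted p = 3.03e-05) and Msh6 (chr17:87975050-87990892) by 0.16 (SE 0.04, adjusted p = 4.42e-04). The Msh3 levels ran between 7.95 and 8.33 in Dble::R6/2 mice and between 7.77 and 7.98 in Hdac4HET mice, and those of Msh6 between 8.14 and 8.26 in Dble::R6/2 mice and between 7.88 and 8.17 in Hdac4HET mice, so in both genes the lowest Dble::R6/2 mice overlapped the highest Hdac4HET mice. With the median over its probe sets the Msh3 change was 0.05 and did not pass the test. Pms2 had the smallest rise, 0.13 (adjusted p = 0.0112), and it no longer passed the test without the arrays high in olfactory bulb markers (0.08, adjusted p = 0.39) or without those whose sex-linked genes went against the label (0.11, adjusted p = 0.0721).

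**Figure D3:**
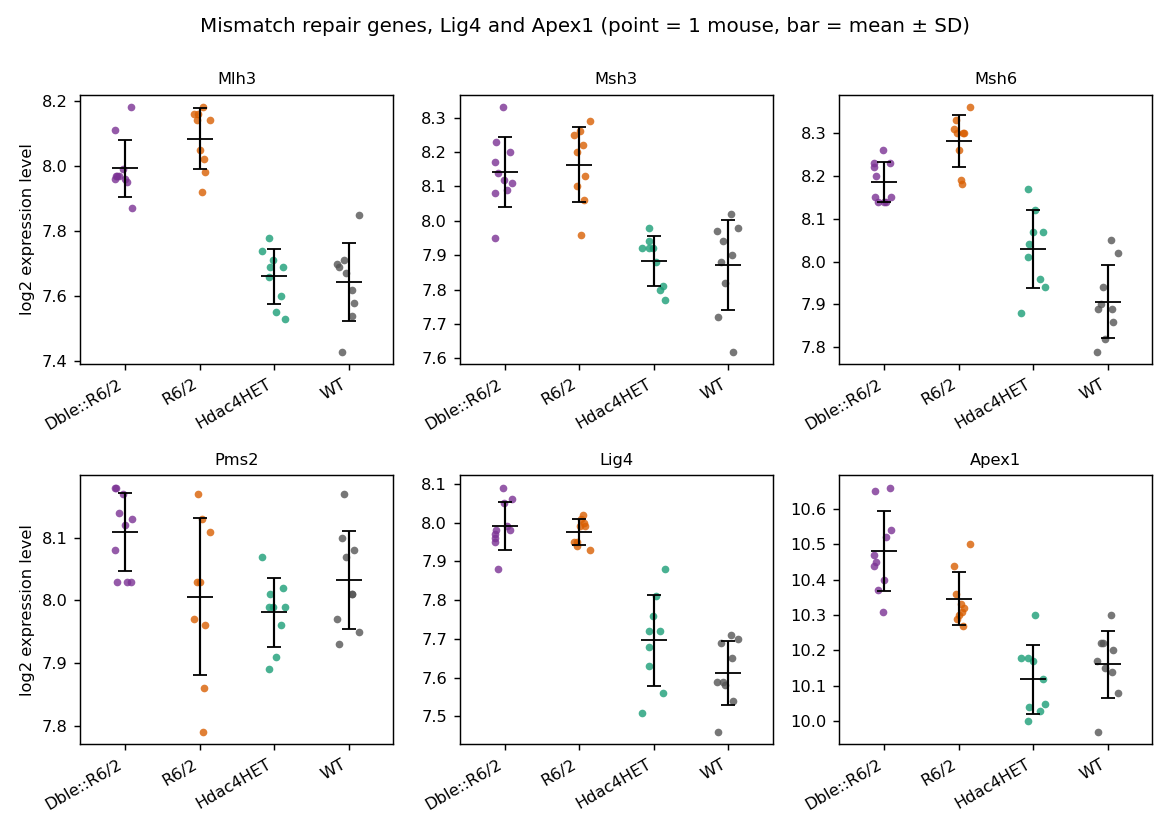
Log2 level in each mouse of the 4 genotypes for the mismatch repair genes Mlh3, Msh3, Msh6 and Pms2, the end joining ligase Lig4 and the base excision nuclease Apex1, with mean and SD and a scale of its own in each panel. The Mlh3 points of Dble::R6/2 mice (7.87 to 8.18) and R6/2 mice (7.92 to 8.18) lie above those of Hdac4HET mice (7.53 to 7.78) and WT mice (7.43 to 7.85), while the Pms2 points of the 4 genotypes overlap.

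Base excision and single-strand break repair held both higher and lower genes. Apex1, the nuclease that cuts at sites without a base, had log2 levels of 10.31, 10.46 and 10.66 as the lowest, median and highest in Dble::R6/2 mice, against 10.0, 10.12 and 10.3 in Hdac4HET mice, a change of 0.36 (SE 0.04, limma adjusted p = 1.11e-08) without overlap. Without Hdac4HET replicate 7 or Dble::R6/2 replicate 6 it passed 1.3-fold too, at up to 0.39. Its brightest probe set is of a kind that may also bind other transcripts, and its probe set 1416135_at, which is not of that kind, rose by 0.18 (adjusted p = 3.54e-04). Pcna, the clamp that holds polymerases on DNA, rose by 0.26 (SE 0.03, adjusted p = 2.83e-10), with every Dble::R6/2 mouse (10.95 to 11.08) above every Hdac4HET mouse (10.7 to 10.86). The ligases Lig1 and Lig3 rose by 0.15 (adjusted p = 0.00873) and 0.11 (adjusted p = 0.012). The Lig3 call was lost without the arrays high in olfactory bulb markers (0.12, adjusted p = 0.114), and its 4 other probe sets, with changes between 0.00 and 0.08, did not pass the test.

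The glycosylases that remove damaged bases did not pass the test. The log2 changes were -0.08 for Ogg1, -0.04 for Neil1, 0.00 for Neil3 and -0.19 for Ung. Parp1, which senses strand breaks, had a change of -0.02, the scaffold Xrcc1 of -0.07 and the flap nuclease Fen1 of 0.04. The less bright Fen1 probe set, singled out after its values were seen, rose by 0.28 (limma adjusted p = 1.02e-05). Polb, the polymerase that fills the gap, was measured by 4 probe sets that went both ways. Its brightest fell by 0.21 (adjusted p = 4.56e-05) to levels between 9.78 and 10.02 in Dble::R6/2 mice, against 10.03 to 10.29 in Hdac4HET mice. The probe set 1434229_a_at fell by 0.4 (adjusted p = 7.74e-09), 1425371_at rose by 0.23 (adjusted p = 3.01e-06) and 1439840_at, with a change of -0.06, did not pass the test, so no single direction holds for Polb.

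Of the nucleotide excision repair genes, Ercc1, a subunit of the nuclease that cuts beside the lesion, had log2 levels of 9.44, 9.52 and 9.57 as the lowest, median and highest in Dble::R6/2 mice, against 9.31, 9.38 and 9.49 in Hdac4HET mice. The groups overlapped, and the log2 change was 0.12 (SE 0.03, limma adjusted p = 0.00168). Without the arrays high in olfactory bulb markers the change was 0.07 and did not pass the test (adjusted p = 0.277). A less bright Ercc1 probe set rose by 0.23 (adjusted p = 7.48e-07) without overlap. Ercc2, a helicase of the transcription factor that opens the helix, had a change of 0.08 (adjusted p = 0.0798).

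Damage signalling split between kinases and arrest genes. Atr, the kinase called by stalled replication and single-stranded DNA, rose by 0.28 (SE 0.05, limma adjusted p = 3.98e-06) and Atm, the kinase called by breaks of both strands, by 0.12 (adjusted p = 0.00976). The checkpoint kinases Chek1 and Chek2 rose by 0.21 (adjusted p = 0.00814) and 0.23 (adjusted p = 0.028), and the Chek2 call ended without Hdac4HET replicate 2 (0.2), Dble::R6/2 replicate 4 (0.21) or Dble::R6/2 replicate 9 (0.18). Without the arrays high in olfactory bulb markers the calls of Atm (0.08, adjusted p = 0.385), Chek1 (0.15, adjusted p = 0.34) and Chek2 (0.31, adjusted p = 0.0871) were lost, while the change of Atr was 0.37 (adjusted p = 4.41e-05). Without the arrays whose sex-linked genes went against the label, Chek1 (0.18, adjusted p = 0.07) and Chek2 (0.22, adjusted p = 0.0842) lost their calls too. The Chek1 call rests on a probe set that may also bind other transcripts, and the 4 other Chek1 probe sets did not pass the test.

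Cdkn1a, the inhibitor of cyclin-dependent kinases known as p21, fell most. Its log2 level was lowest at 7.37, with a median of 7.86 and a highest value of 8.04 in Dble::R6/2 mice, against 8.53, 8.74 and 8.91 in Hdac4HET mice, so every Dble::R6/2 mouse lay below every Hdac4HET mouse. The log2 change was -0.97 (SE 0.11, limma adjusted p = 1.57e-09), and -0.95 without the arrays high in olfactory bulb markers (adjusted p = 5.82e-05). The second Cdkn1a probe set averaged 7.0 ± 0.16 (SD, n = 10) in Dble::R6/2 mice and 8.23 ± 0.11 (n = 9) in Hdac4HET mice, a change of -1.23 (adjusted p = 1.37e-13).

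The 3 Gadd45 genes, small stress proteins that act in growth arrest and are also induced by neuronal activity, were lower as well. Gadd45b had log2 levels of 7.79, 8.04 and 8.39 as the lowest, median and highest in Dble::R6/2 mice, against 8.3, 8.47 and 8.97 in Hdac4HET mice, a change of -0.49 (SE 0.08, limma adjusted p = 4.42e-06) with 1 Dble::R6/2 mouse inside the Hdac4HET range. Its other probe sets changed by -0.31 (1449773_s_at, adjusted p = 0.0046) and -0.09 (1420197_at, adjusted p = 0.216), and with the median over its probe sets the Gadd45b change was -0.31, under 1.3-fold. Gadd45a had levels of 6.65, 7.14 and 7.29 in Dble::R6/2 mice, against 7.11, 7.55 and 8.18 in Hdac4HET mice, a change of -0.45 (SE 0.12, adjusted p = 0.0017) with overlapping groups. Leaving out Hdac4HET replicate 3 brought the Gadd45a change to -0.37, under 1.3-fold. Gadd45g fell by 0.34 (SE 0.08, adjusted p = 0.00112), which is under 1.3-fold, and by 0.43 (adjusted p = 0.011) once the arrays high in olfactory bulb markers were left out, which is past it.

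**Figure D4:**
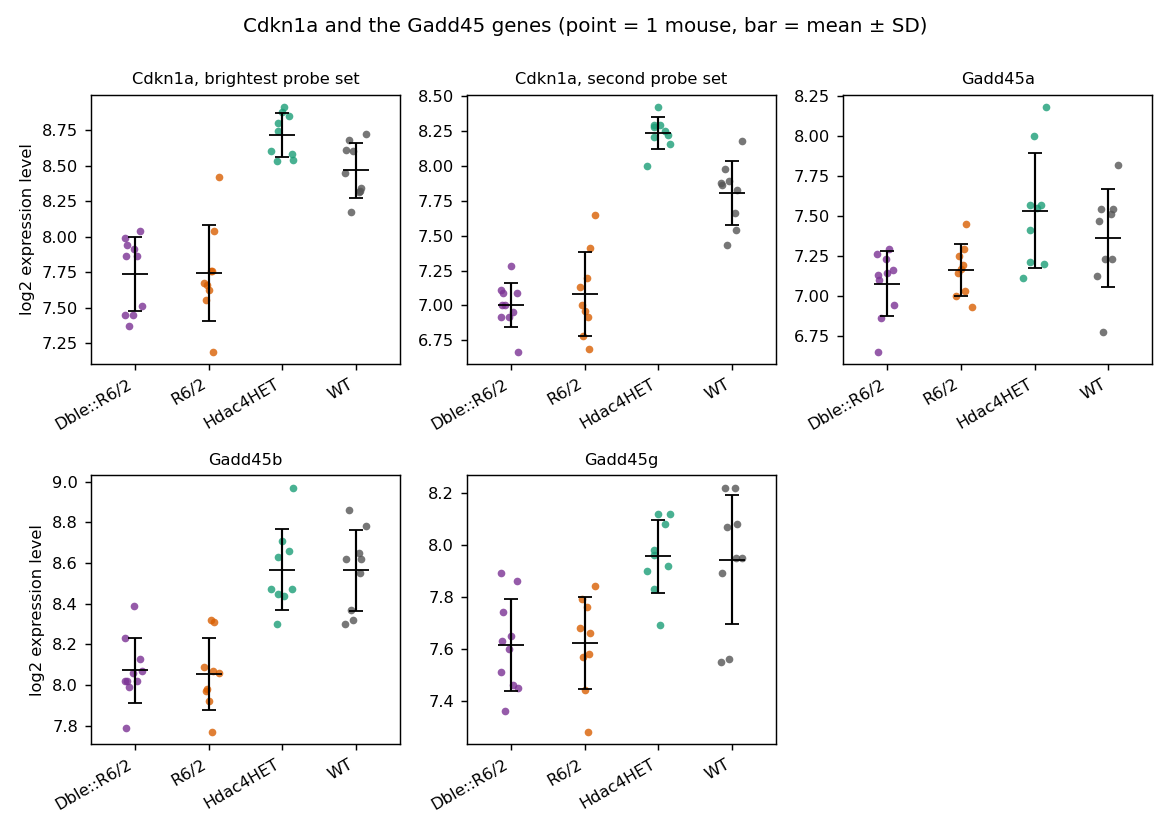
Log2 level of both Cdkn1a probe sets and of Gadd45a, Gadd45b and Gadd45g in each mouse of the 4 genotypes, with mean and SD and a scale of its own in each panel. On the brightest Cdkn1a probe set the Dble::R6/2 mice (7.37 to 8.04) lie below the Hdac4HET mice (8.53 to 8.91), and the R6/2 mice (7.19 to 8.42) overlap the WT mice (8.17 to 8.72).

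Some other gene groups were lower along with these arrest genes, and others changed little. Of all genes, 14.1% were lower at any size of change and 4.08% past both thresholds. Of 11 immediate early genes, which neurons switch on within minutes of activity, 8 were lower in Dble::R6/2 than in Hdac4HET mice past both thresholds, with a median log2 change of -0.64. Their mean level ran between 7.67 and 8.61 in Dble::R6/2 mice, 7.85 and 9.18 in R6/2 mice, 8.44 and 9.64 in Hdac4HET mice and 7.78 and 9.52 in WT mice. Of 7 astrocyte markers 6 were lower at any size of change, with means of 10.6 to 10.79 in Dble::R6/2 mice and 10.84 to 11.04 in Hdac4HET mice, and the 5 striatal markers were lower with a median of -1.11. The 6 markers of cortical excitatory neurons had a median of -0.2, with Cux2 at -0.58 past both thresholds. Of 5 oligodendrocyte markers 2 were lower at any size (median -0.06), and of 6 microglia markers 1 (median -0.09). Of 5 endothelial markers none was called (median 0.03). The part of these groups in the lower Cdkn1a and Gadd45 levels was not tested beyond the relations that follow.

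Within each genotype, the levels of Gadd45b, Gadd45g and Cdkn1a were set against the mean of the 11 immediate early genes, 12 relations in all, 2-sided and with Benjamini-Hochberg adjustment over the 12. For Gadd45b, Pearson's r was 0.68 in 10 Dble::R6/2 mice (permutation p = 0.0195, adjusted p = 0.0586), 0.78 in 9 R6/2 mice (exact permutation p = 0.00763, adjusted p = 0.0458) and 0.89 in 9 Hdac4HET mice (exact permutation p = 7.33e-04, adjusted p = 0.0088). Spearman's rho was 0.77 in Dble::R6/2 (permutation p = 0.0127, adjusted p = 0.103), 0.78 in R6/2 (exact permutation p = 0.0172, adjusted p = 0.103) and 0.73 in Hdac4HET mice (exact permutation p = 0.0311, adjusted p = 0.124). The WT mice fell into 2 sets, 3 mice with a mean of 7.78 to 8.44 and 6 mice with a mean of 9.17 to 9.52, so no pooled value is given, and within the 6 mice r was 0.63 (exact permutation p = 0.186, adjusted p = 0.426) and rho 0.54 (exact permutation p = 0.297, adjusted p = 0.534). Without the 2 mice farthest from the median of the immediate early genes, r for Gadd45b was 0.56 in Dble::R6/2, 0.6 in R6/2 and 0.79 in Hdac4HET mice, and none passed after adjustment (adjusted p = 0.352, 0.352 and 0.336, exact permutation). The calls in R6/2 and Hdac4HET mice were thus lost without those mice, while r stayed above 0. With 8, 7 and 7 mice left the test is also weaker. The omission therefore cannot tell whether the relation rests on the mice left out.

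For the other genes no relation passed after adjustment. For Gadd45g, r was 0.37 in Dble::R6/2, 0.29 in R6/2, 0.77 in Hdac4HET and, within 6 mice, 0.54 in WT mice, with adjusted p between 0.0586 and 0.575 (permutation). For Cdkn1a, r was 0.42 in Dble::R6/2, 0.06 in R6/2, 0.23 in Hdac4HET and, within the 6 mice, 0.39 in WT mice, with adjusted p between 0.426 and 0.854 (permutation).

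**Figure D5:**
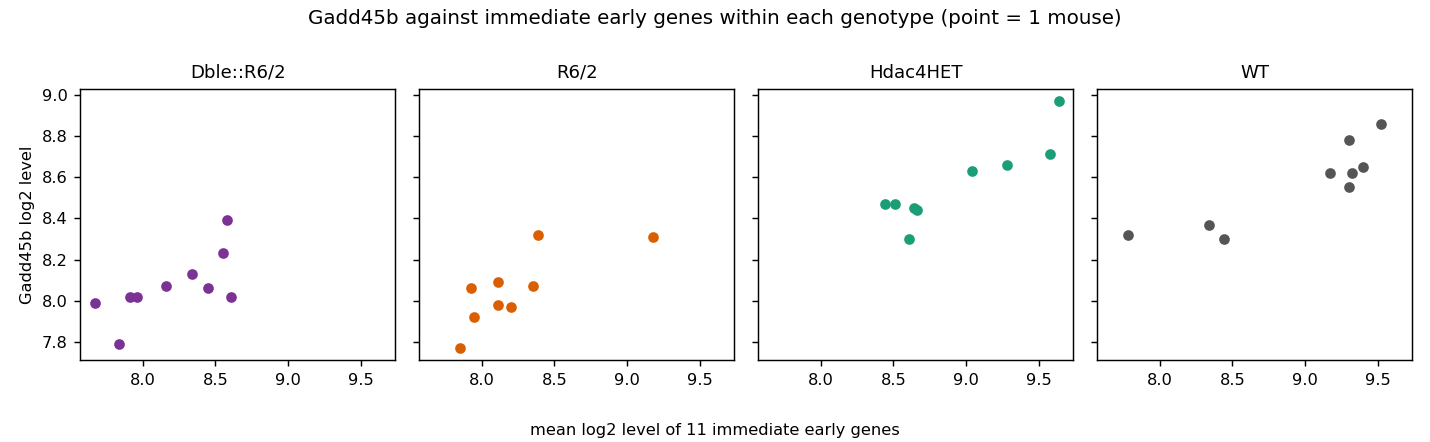
Gadd45b log2 level against the mean log2 level of 11 immediate early genes, with 1 point per mouse and 1 panel per genotype on common axes. The WT mice form 2 sets, 7.78 to 8.44 and 9.17 to 9.52 on the horizontal axis, and both transgenic genotypes lie lower on the vertical axis (7.79 to 8.39 in Dble::R6/2 and 7.77 to 8.32 in R6/2 mice) than Hdac4HET mice (8.3 to 8.97) and WT mice (8.3 to 8.86), with 1 Dble::R6/2 and 2 R6/2 mice reaching into their ranges.

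A list of 90 other measured genes of repair and of the p53 response was set beside them. In Dble::R6/2 against Hdac4HET, 33 of the 90 (36.7%) were higher at any size of change, against 28.4% of all genes, and 7 (7.78%) lower, against 14.1%. Past both thresholds 6 (6.67%) were higher, against 2.6% of all genes, and 0 lower by limma, against 4.08%, with a median log2 change of 0.09. The lists were not tested against each other. The 6 were Pmaip1, a p53 target that promotes cell death, at 0.64 (limma adjusted p = 4.27e-04), Xpa, which verifies bulky lesions, at 0.49 (adjusted p = 3.87e-08), Ercc3, the other helicase of the factor that holds Ercc2, at 0.45 (adjusted p = 5.39e-11), Prkdc, the kinase that joins the Ku ring, at 0.43 (adjusted p = 9.78e-10), Fancg of the Fanconi complex at 0.42 (adjusted p = 7.8e-07) and Rad51d, which acts in homologous recombination, at 0.39 (adjusted p = 8.12e-10). None of the 90 fell by more than 1.3-fold. The largest falls were those of Fancd2, the Fanconi protein that is ubiquitinated at damage, and Mbd4, a glycosylase, at -0.35 each. Of the 16 other p53 targets and regulators 6 were higher and 1, Ccng1, lower. Mdm2, the ubiquitin ligase that restrains p53, rose by 0.11 (adjusted p = 0.00241).

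R6/2 against WT, the comparison in which Brca1 was noted, is given as a description, and nothing is read from its counts. Brca1 had log2 levels of 5.83, 6.41 and 6.66 as the lowest, median and highest in R6/2 mice, against 4.7, 5.14 and 5.59 in WT mice, a change of 1.22 (SE 0.11). Cdkn1a levels were 7.19, 7.67 and 8.42 in R6/2 mice, against 8.17, 8.45 and 8.72 in WT mice (change -0.73, SE 0.11), with overlap. Gadd45b levels were 7.77, 8.06 and 8.32 in R6/2 mice, against 8.3, 8.62 and 8.86 in WT mice (change -0.51, SE 0.08), and Mlh3 levels 7.92, 8.14 and 8.18 in R6/2 mice, against 7.43, 7.67 and 7.85 in WT mice (change 0.44, SE 0.05). Msh6 had a change of 0.37, Lig4 of 0.36, Xrcc5 of 0.32, Msh3 of 0.29, Pcna and Atr of 0.27 each and Gadd45a of -0.2. By the thresholds used above, 14 of the 41 genes counted as higher and 10 as lower at any size, beside 28.1% and 18.4% of all genes, and 2 as higher (Brca1 and Mlh3) and 2 as lower (Cdkn1a and Gadd45b) past both thresholds, beside 3.75% and 3.3% of all genes. These counts come from the values on which the set was selected and are no test of it. The median log2 change was 0.33 over the mismatch repair genes, 0.15 over end joining, 0.01 over homologous recombination and over nucleotide excision repair, -0.06 over base excision and -0.07 over signalling and arrest, against 0.00 over all genes.

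In mice without the transgene, no repair gene passed the test for the Hdac4 null allele on its brightest probe set. A gene that did not pass may still have changed, and 6 of the 9 Hdac4HET arrays were high in olfactory bulb markers. Hdac4HET against WT shares the WT mice with the comparison just described. In it, 0 of 41 genes passed at any size of change by limma or by the methods' t-test. Of all genes, 1.84% passed at any size and 0.368% past both thresholds by limma. An unadjusted limma p under 0.05 was found for 8 of the 41 genes, and the share of all genes at that threshold was not computed. Nothing about these genes is therefore read from that count. The Brca1 change was 0.27 (SE 0.11, adjusted p = 0.201) and that of Cdkn1a 0.24 (SE 0.11, adjusted p = 0.247). The second Cdkn1a probe set averaged 8.23 ± 0.11 (SD, n = 9) in Hdac4HET mice and 7.81 ± 0.23 (n = 9) in WT mice, a change of 0.43 (adjusted p = 0.0168), with its difference between the transgene effects on both backgrounds at -0.51 (adjusted p = 0.0496). The 3 Hdac4HET mice without raised olfactory bulb markers had levels of 8.0, 8.16 and 8.42 on it.

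Dble::R6/2 against R6/2 shares the R6/2 mice with R6/2 against WT. By limma 9 of 41 genes had an unadjusted p under 0.05, a threshold for which no share of all genes was computed. Without that share the count says nothing particular to these genes. After adjustment 1 of 41 genes passed at any size and 0 past both thresholds, where 1.96% and 0.0879% of all genes passed. The gene was Xrcc1, with levels of 7.92, 8.01 and 8.05 as the lowest, median and highest in Dble::R6/2 mice, against 7.76, 7.86 and 8.03 in R6/2 mice, a change of 0.12 (SE 0.03, adjusted p = 0.0499). Of 37 arrays left out in turn, 29 ended this call, and the methods' t-test gave 0 genes. Brca1 had a change of 0.12 (SE 0.11, adjusted p = 0.603), Cdkn1a of 0.00 (SE 0.11) and Gadd45b of 0.02 (SE 0.08), and none passed the test.

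The interaction asks whether the transgene changed a gene by a different amount with and without the Hdac4 null allele, and it uses R6/2 and WT mice too. By limma 8 of 41 genes had an unadjusted p under 0.05, a threshold for which no share of all genes was computed. Again nothing is read from that count. After adjustment 1 of 41 genes passed at any size on its brightest probe set and 0 past both thresholds, where 1.04% and 0.187% of all genes passed. The gene was Msh6, with a change of 0.16 on the Hdac4HET background and 0.37 on the WT background, a difference of -0.22 (SE 0.05, adjusted p = 0.0356). Msh6 levels were 8.14, 8.18 and 8.26 as the lowest, median and highest in Dble::R6/2 mice, 8.18, 8.3 and 8.36 in R6/2 mice, 7.88, 8.04 and 8.17 in Hdac4HET mice and 7.79, 7.89 and 8.05 in WT mice. The difference was -0.15 without the arrays high in olfactory bulb markers (adjusted p = 0.455). For Brca1 the difference was -0.14 (SE 0.15, adjusted p = 0.632) and for Mlh3 -0.11 (SE 0.07, adjusted p = 0.368).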

How the data were processed

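Cortical RNA of 37 mice aged 9 wk was hybridised to Affymetrix Mouse Genome arrays, 1 mouse on each. Genotypes and replicate numbers were read from the labels. The authors deposited a single table of log2 values per probe set and array. Their summary and normalization steps were not given in the sources used here. RACE was used for quality control according to the methods, which exclude chips by a quality measure without naming them, so all 37 arrays were used. The values were taken as deposited, with array medians between 6.156 and 6.214 and correlations of 0.9932 to 0.998 between arrays of 1 genotype. Precision is set by how many mice each genotype had, and nothing in the labels ties arrays to a batch. How a dim probe set compares with background was not measured in the table.

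Genes were named from the platform annotation, which gave 1 symbol to 34945 probe sets, several to 932 and none to 9160. Probe sets with several symbols gave no gene its name. Gene positions and promoter windows came from RefSeq tables of GRCm38.p6, and the p53 motif searched was its 10-base consensus with ambiguity letters.

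The genotypes were fitted in 1 model over 37 arrays with limma 3.58.1 in R 4.3.3 (lmFit and eBayes with a trend), with Benjamini-Hochberg adjustment over 45037 probe sets. A gene was past both thresholds at an adjusted p under 0.05 and a change of more than 1.3-fold. The fit was tested on simulated data before use. Relations across mice used permutation tests, exact for fewer than 10 mice and with 100000 permutations for 10 mice. Tables and figures were made with Python 3.11.15. The members and the other gene lists were chosen with earlier results of these data known. Per-mouse levels were given, by rule, for Brca1, for genes past both thresholds in any comparison and for the gene with the largest change in each functional group, and of the other lists for up to 4 genes each past both thresholds. Less bright probe sets of genes outside this rule, and Birc5, Fancd2, Mbd4, Mdm2 and Ccng1, were picked once the values were known. The splitting of the WT mice by their immediate early genes was also made after the values were seen.

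Replicate numbers were tested as pairs. Over 54 pairs of arrays with the same number, the correlation of their deviations from the genotype means had a median of 0.00881 and lay between -0.268 and 0.217, so the numbers were not taken to pair the mice. Alternatives were quantile normalization, probe sets above the median level only, a fit of the compared genotypes alone, the methods' t-test, a term for the labelled sex, a replicate block, weights for array quality, the table without _x_at and _s_at probe sets, the median over a gene's probe sets, no fold threshold and the omission of 1 array at a time. The alternatives that omit the 7 arrays high in olfactory bulb markers or the 6 arrays whose sex-linked genes went against the label were added after seeing the data. Arrays of older mice were not analysed here.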

Additional observations from a re-analysis of the deposited data

Results flagged for a closer look

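On the brightest probe sets, Msh6 was the single result singled out by a test of the difference between backgrounds. The second, less bright Cdkn1a probe set passed that test as well, at -0.51 (limma adjusted p = 0.0496). The transgene effect on Msh6 was 0.16 in mice with the Hdac4 null allele and 0.37 in mice without it, an interaction of -0.22 on the log2 scale (limma adjusted p = 0.0356). Leaving out any 1 of 9 of the 37 arrays ended the call (WT replicates 1, 3 and 5, Hdac4HET replicates 1, 5 and 7, R6/2 replicates 1 and 3 and Dble::R6/2 replicate 3), with adjusted p between 0.0161 and 0.0578 over all 37 omissions, and without the arrays high in olfactory bulb markers it was -0.15 (adjusted p = 0.455). The cause was not tested.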

How the results depend on the processing

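Counts of changed genes past both thresholds in Dble::R6/2 against Hdac4HET were 2 with the median over a gene's probe sets (Brca1 and Gadd45b lost), 24 with no fold threshold, and 3 to 5 when each array was left out in turn. At any size they were 22 to 26 with each array left out, and 18 without the arrays high in olfactory bulb markers, where Atm, Bard1, Chek1, Chek2, Ercc1, Lig3 and Pms2 were lost and Ogg1 gained. Without the arrays whose sex-linked genes went against the label they were 20, with Bard1, Chek1, Chek2 and Pms2 lost. In R6/2 against WT the counts were 24 with no fold threshold and, with each array left out, 4 to 5 past both thresholds and 22 to 25 at any size. In Hdac4HET against WT array quality weights gave 2 genes at any size (Lig1 and Msh6), and leaving out each array gave 0 to 2 at any size and 0 past both thresholds. In Dble::R6/2 against R6/2 the single call at any size, Xrcc1, gave 1 with no fold threshold and became 0 under the methods' t-test, in a fit of the compared genotypes alone, with the replicate block, without the _x_at and _s_at probe sets, and either set of doubtful arrays left out, and 0 to 1 with each array left out (0 past both thresholds). In the interaction the call, Msh6, gave 1 with no fold threshold, 0 without either set of doubtful arrays and 0 to 1 with each array left out (0 past both thresholds). The replicate numbers did not pair the mice, and the replicate block gave 4 genes past both thresholds and 23 at any size in Dble::R6/2 against Hdac4HET.

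Directions reversed for Rad52 (-0.15) and Trp53bp1 (-0.11) in Dble::R6/2 against Hdac4HET and for Lig3 (-0.11) and Fen1 (0.09) in R6/2 against WT with the median over a gene's probe sets. Without the _x_at and _s_at probe sets they reversed for Chek1 (-0.03) in Dble::R6/2 against Hdac4HET and for Fen1 (0.24) in R6/2 against WT. Those 2 alternatives use other probe sets of the gene. The relation of Gadd45b to immediate early genes no longer passed in R6/2 mice (r = 0.6) and Hdac4HET mice (r = 0.79) without the 2 mice farthest from the median. The cause of a lost call was not tested. The arrays give no depth, and changes of dim genes such as Bard1, Brip1 and Neil3 are the least certain.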

Other observations

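Trp53bp1 had 6 probe sets, and 2 of the dim ones varied widely between mice, by different amounts in the genotypes. For 1457812_at the SD was 0.63 in Dble::R6/2, 1.7 in R6/2, 0.96 in Hdac4HET and 1.34 in WT mice. The medians were 3.21, 3.27, 4.88 and 3.27 in the same order. On 1457812_at the log2 levels ran between 2.91 and 5.14 in Dble::R6/2 mice, 2.91 and 6.88 in R6/2 mice, 2.96 and 5.46 in Hdac4HET mice and 3.15 and 6.31 in WT mice, and 1442316_x_at varied on the same mice. The brightest Trp53bp1 probe set had no such spread, with levels between 10.78 and 11.23 on all arrays.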
